A study of Mus musculus with 12 samples.

Results

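Fos, Fosl2, Jun, Junb, Jund, Egr1, Ier2, Ier3, Myc and Klf6 are listed here as immediate early genes. Their levels were followed in mouse hepatocyte spheroids over 14 days of culture. They were taken by name as a list of 10 genes. All 10 were measured among the 11861 genes of the arrays, each by 1 probe set, and the rule of taking the probe set with the highest mean therefore made no choice. The probe sets are credited to these genes by the platform annotation, and the mouse chromosomes are 12 for Fos, 5 for Fosl2, 4 for Jun, 8 for Junb, Jund and Ier2, 18 for Egr1, 17 for Ier3, 15 for Myc and 13 for Klf6. The list is loosely named transcription factors, since Ier2 and Ier3 encode no classical DNA-binding factor.

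Total RNA was measured on 12 arrays. Each of 4 preparations (male 1, male 2, female 1 and female 2) was a cryopreserved pool of hepatocytes from 3 mice of the inbred strain C57BL/6, and no agent or genetic change is named in the labels. Spheroids, compact aggregates of cells that cannot attach, formed by themselves in ultra-low attachment plates and were harvested at culture days 1, 7 and 14 after formation. Sex and day together gave 6 groups, with 2 arrays in each. Each value comes from a pool, so the spread between pools is not the spread between single mice, and p-values reflect the spread between these pools only. Intact liver, freshly isolated cells and freshly thawed cells were not analysed here, so day 1 is the earliest time and the only baseline.

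Immediate early genes are transcribed within minutes of a stimulus by factors already present in the cell, such as serum response factor with its partners, without new protein synthesis. FOS proteins pair with JUN proteins to form AP-1, and EGR1, MYC and KLF6 bind other DNA elements. In liver these genes are known for a rapid burst after partial hepatectomy, injury or the enzymatic isolation of hepatocytes. Their mRNAs are mostly short-lived.

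Array medians lay between 7.47 and 7.53 on the log2 scale, and Pearson's r across genes between the 2 arrays of a group was 0.984 to 0.990, a description of the arrays, since genes are not replicates. Of 10 hepatocyte markers 9 were measured, and their mean level was 10.82 to 11.46 over the arrays. The mean of 16 of 20 macrophage markers ran from 4.29 to 5.40 at day 1, from 5.11 to 6.47 at day 7 and from 5.01 to 6.99 at day 14. Sinusoidal endothelial markers (10 of 15) ran from 5.95 to 6.46 at day 1, from 5.37 to 6.46 at day 7 and from 4.81 to 5.97 at day 14. Markers of stellate cells and fibroblasts (13 of 15) ran from 7.01 to 7.18, from 5.70 to 6.55 and from 4.03 to 6.79 at the same days, and those of cholangiocytes (6 of 10) from 5.33 to 5.76, from 6.31 to 6.56 and from 6.49 to 7.18. At day 14 against day 1, 14.4% of all genes had an adjusted p under 0.05 in limma. By the same measure 5 of the 10 endothelial and 7 of the 13 stellate markers fell. Of the 6 cholangiocyte markers 4 rose, and of the 16 macrophage markers 2 rose. At day 7 (4.72% of all genes) 3 stellate markers fell and 3 cholangiocyte markers rose. Markers of neutrophils and lymphocytes were not measured (0 of 10 and 0 of 15). The part of these cell types in the results below was not tested. In such bulk samples fewer cells of a type and less RNA per cell cannot be told apart.

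Promoter windows were found for 7 of the 10 genes, and 4 are shown as examples, those with an AP-1 variant or EGR site and that of Fos. The windows of Junb, Jund and Ier3 are not shown. Each window holds the 250 bases upstream of the transcription start in RefSeq (GRCm38.p6), 5′ to 3′ on the strand of the gene. The Fos window is at chr12:85473640-85473889 on the plus strand, Jun at chr4:95052223-95052472 on the minus strand, Fosl2 at chr5:32136222-32136471 on the plus strand and Klf6 at chr13:5861239-5861488 on the plus strand. Capitals mark the motif matches described next.
Fos: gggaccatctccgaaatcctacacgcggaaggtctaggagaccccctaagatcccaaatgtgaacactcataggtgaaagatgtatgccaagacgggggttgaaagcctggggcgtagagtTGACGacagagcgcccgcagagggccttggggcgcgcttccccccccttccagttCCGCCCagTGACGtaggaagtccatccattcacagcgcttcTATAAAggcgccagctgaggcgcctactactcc
Jun: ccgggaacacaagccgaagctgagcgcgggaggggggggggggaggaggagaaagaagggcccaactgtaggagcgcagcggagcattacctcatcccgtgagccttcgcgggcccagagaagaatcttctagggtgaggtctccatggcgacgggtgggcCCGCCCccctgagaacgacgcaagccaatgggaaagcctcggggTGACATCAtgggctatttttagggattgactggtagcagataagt
Fosl2: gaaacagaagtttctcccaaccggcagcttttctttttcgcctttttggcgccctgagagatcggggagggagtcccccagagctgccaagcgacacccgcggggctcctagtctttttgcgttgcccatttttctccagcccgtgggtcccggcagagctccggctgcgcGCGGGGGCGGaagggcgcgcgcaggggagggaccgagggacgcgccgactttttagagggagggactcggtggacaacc
Klf6: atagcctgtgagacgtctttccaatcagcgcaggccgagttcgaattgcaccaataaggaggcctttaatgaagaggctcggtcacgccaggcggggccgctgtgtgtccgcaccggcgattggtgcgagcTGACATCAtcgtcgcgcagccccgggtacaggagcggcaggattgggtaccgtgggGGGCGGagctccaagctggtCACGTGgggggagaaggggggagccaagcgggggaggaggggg
Both strands were searched with exact letters. The Fos window holds TGACG, the cyclic AMP half-site, at 129 to 125 and at 66 to 62 bases before the start, a GC box (GGGCGG, read here as CCGCCC on the printed strand) and the TATA box letters TATAAA. Jun and Klf6 both hold TGACATCA, the AP-1 variant, at 45 to 38 and at 119 to 112 bases before the start. Jun holds a GC box on the other strand as well, and Klf6 holds GGGCGG and the E-box CACGTG, a palindrome of the kind that MYC and its partners bind. Fosl2 holds GCGNGGGCG, the EGR site, whose last letters overlap a GC box. A match is a description of letters, not a bound site.

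The shares of all 32851 mouse promoter windows of this length with the same letters put these matches in context. TGACATCA was in 2.93% of them and in 2 of the 7 windows matched here. TGACG was in 17.8% (Fos and Junb), GCGNGGGCG in 4.7% (Fosl2), GGGCGG in 32.7% (Fos, Fosl2, Jun, Ier3 and Klf6), CACGTG in 6.02% (Klf6) and TATAAA in 12.4% (Fos). The AP-1 site TGANTCA (6.75%), the full cyclic AMP element TGACGTCA, which contains TGACG (1.55%), and the CArG box (1.47%) matched none of the 7 windows. Bases beyond these windows, and the promoters of Egr1, Ier2 and Myc, were not searched. A missing match therefore does not show that a gene lacks such a site.

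**Figure D1:**
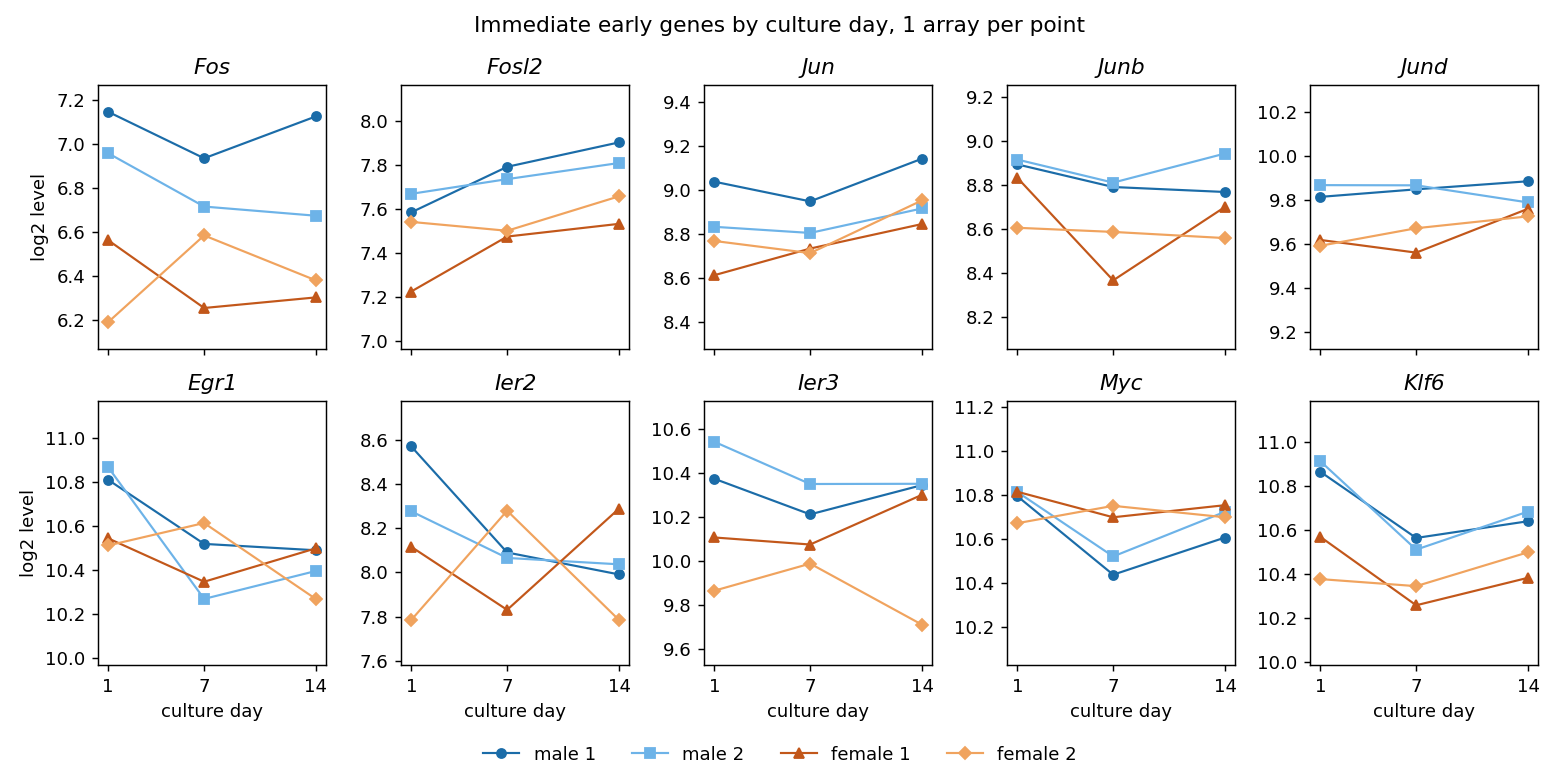
Log2 level (y axis) of the 10 immediate early genes against culture day (x axis). Every point is 1 array, lines join the arrays of a preparation, and every panel spans the same log2 range. Fos, Fosl2, Junb, Jund, Ier3 and Klf6 lay higher in both male than in both female preparations at each of the 3 days (Fosl2 not at day 1 after median centring or a second quantile normalization), while Klf6 stood lower at day 7 than at day 1 in all 4 preparations.

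None of the 10 genes passed the test between any pair of days. The span between the lowest and the highest of the 12 arrays was 0.32 for Jund, the smallest, and 0.96 for Fos, the largest. By SD over the 12 arrays Jund ranked at the 23.8th percentile of all genes and Fos at the 83.9th. All levels lay between 6.19 and 10.91, above 4.79, the lowest of the highest values that any probe set reached. Tests between days used limma on the log2 levels with a mean for each group of sex and day, and a change is the mean of the male and the female change. A gene passed at an adjusted p under 0.05 over all 11861 genes (Benjamini-Hochberg).

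Klf6, a zinc-finger factor that binds GC-rich elements and is induced early in injured liver, had the lowest adjusted p among the genes over the first week. In male 1 it stood at 10.86, 10.56 and 10.64 at days 1, 7 and 14, and in male 2 at 10.91, 10.51 and 10.68. In female 1 the levels were 10.57, 10.26 and 10.38, and in female 2 they were 10.38, 10.34 and 10.50. Day 7 was below day 1 in every preparation, with changes of -0.03 in female 2 and of -0.30 to -0.40 in the others, yet the levels at days 7 and 1 overlap between preparations. Its mean was 10.68 ± 0.25 at day 1, then 10.42 ± 0.14 at day 7, and 10.55 ± 0.14 at day 14 (SD over 4 preparations). Day 7 differed from day 1 by -0.26 ± 0.065 (SE, 4 preparations per day; 95% interval -0.41 to -0.11), or 0.834-fold, which missed the threshold with an adjusted p of 0.0608 in limma. Under a trended and robust spread (956 genes called, against 560 in the reported fit) limma gave an adjusted p of 0.00368. With only genes of mean level at least 6 (616 called) limma gave 0.0357. Both put Klf6 past the threshold on the same change, while leaving out 1 preparation in turn gave 0.119 (without female 2) to 0.377 (without male 2). At day 14 Klf6 stood at -0.13 ± 0.065 against day 1 (adjusted p 0.232).

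Egr1, the zinc-finger factor of the growth response, and Myc, the growth regulator that pairs with MAX, were the other genes with an unadjusted p under 0.05 in the first week. Egr1 levels at days 1, 7 and 14 were 10.81, 10.52 and 10.49 in male 1 and 10.87, 10.27 and 10.39 in male 2. They were 10.54, 10.35 and 10.50 in female 1 and 10.51, 10.61 and 10.27 in female 2. The highest arrays were both males at day 1, and at day 14 every preparation was below its own day 1 level. The mean level was 10.68 ± 0.18 at day 1, then 10.44 ± 0.16 at day 7, and 10.41 ± 0.11 at day 14 (SD over 4 preparations). Egr1 at day 7 stood at -0.25 ± 0.09 against day 1 (adjusted p 0.18), and at day 14 at -0.27 ± 0.09 (adjusted p 0.0828; interval -0.48 to -0.06). Of the alternative fits, only the trended and robust spread put Egr1 under the threshold. Its limma adjusted p-values were 0.0446 at day 7 and 0.0143 at day 14. That setting called 956 and 2183 of all genes, against 560 and 1706 in the reported fit.

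Myc stood at 10.79, 10.44 and 10.61 in male 1 at days 1, 7 and 14, and at 10.81, 10.52 and 10.72 in male 2. Female 1 had 10.81, 10.70 and 10.75 and female 2 had 10.67, 10.75 and 10.70. Both males were lower at day 7 than either female, and at day 1 female 2 was the lowest of the 4 preparations. Myc at day 7 differed from day 1 by -0.17 ± 0.06 (adjusted p 0.161; 0.0352 with the trended and robust spread), and at day 14 by -0.08 ± 0.06 (adjusted p 0.451). No other alternative fit put Myc under the threshold.

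Fosl2 and Jun, of the FOS and JUN families whose proteins together make AP-1, lay higher at day 14 than at day 1 in every preparation. So did 18.1% of all genes, and neither gene passed. Fos, Junb and Jund of the same families did not rise in every preparation. Fosl2, which encodes the FOS relative FRA-2, stood at 7.58, 7.79 and 7.90 in male 1 at days 1, 7 and 14 and at 7.67, 7.73 and 7.81 in male 2. Its levels were 7.22, 7.47 and 7.53 in female 1 and 7.54, 7.50 and 7.66 in female 2. Every preparation ended above its day 1 level, and the day 14 change was 0.22 ± 0.079 (1.17-fold; adjusted p 0.103).

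Jun, the main partner of FOS, had levels of 9.04, 8.95 and 9.14 in male 1 and 8.83, 8.81 and 8.92 in male 2 at days 1, 7 and 14. The levels in female 1 were 8.61, 8.74 and 8.85, and those in female 2 were 8.77, 8.72 and 8.95. Jun was highest at day 14 in all 4 preparations. Its change was 0.15 ± 0.082 between day 14 and day 1 (adjusted p 0.269) and 0.16 ± 0.082 between day 14 and day 7 (adjusted p 0.427).

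Fos itself, the founding member of the family, showed no shared course. It stood at 7.15, 6.94 and 7.13 in male 1 and at 6.96, 6.72 and 6.68 in male 2 at days 1, 7 and 14. In female 1 it stood at 6.56, 6.26 and 6.30, and in female 2 at 6.19, 6.59 and 6.38. Day 7 lay below day 1 in 3 preparations and 0.39 above it in female 2, so the mean change of -0.09 ± 0.13 (adjusted p 0.776) averages opposite directions. Without female 2 the mean change was -0.27 (adjusted p 0.46), and without female 1 it was 0.084.

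Junb, a JUN protein that often opposes JUN in growth control, stood at 8.89, 8.79 and 8.77 in male 1 and at 8.92, 8.81 and 8.94 in male 2 at days 1, 7 and 14. It stood at 8.83, 8.37 and 8.70 in female 1 and at 8.61, 8.59 and 8.56 in female 2. Day 7 was lower than day 1 in all 4 preparations, with a change of -0.47 in female 1 and of -0.10 to -0.02 in the others, and a mean of -0.17 ± 0.082 (adjusted p 0.291). Jund, the JUN protein expressed most steadily in resting cells, ran from 9.56 to 9.88 over the 12 arrays. Its changes were 0.01 ± 0.055 at day 7 (interval -0.11 to 0.14) and 0.07 ± 0.055 at day 14 (-0.06 to 0.19), both against day 1.

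Ier2 and Ier3, a nuclear protein gene and a stress survival gene that respond to the same stimuli, showed no course over days shared by all preparations. At days 1, 7 and 14, Ier2 stood at 8.57, 8.09 and 7.99 in male 1 and at 8.28, 8.07 and 8.04 in male 2. It stood at 8.12, 7.83 and 8.29 in female 1 and at 7.78, 8.28 and 7.78 in female 2. Both males were lower at the later days than at day 1, while day 7 was the lowest of the 3 days in female 1 and the highest in female 2. Ier3 ran from 10.21 to 10.54 in the male arrays and from 9.71 to 10.30 in the female ones, and its mean changes were -0.07 at day 7 and -0.05 at day 14 against day 1.

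**Figure D2:**
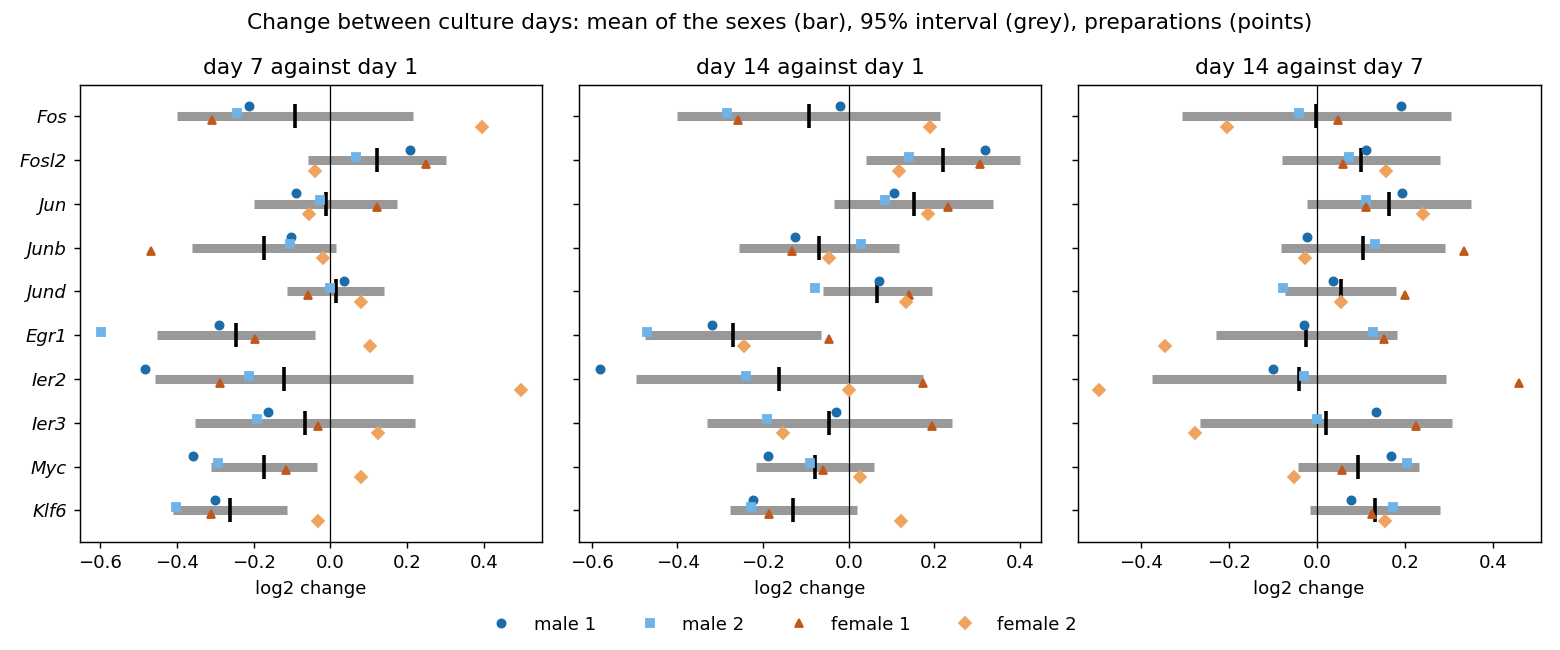
Log2 change (x axis) of each gene (y axis) between culture days. Bars are the limma estimate averaged over the sexes, grey bands its 95% interval, and points the change within each preparation. Points of female 2 often lie opposite to the other 3 at day 7, and the Klf6 band at day 7 does not reach 0, nor do those of Egr1 and Myc at day 7 and of Egr1 and Fosl2 at day 14, though all missed the adjusted threshold.

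Counts put the 10 genes beside all genes tested. Between day 7 and day 1, 0 of the 10 passed, where 4.72% of all genes did, and 3 of the 10 (Egr1, Myc and Klf6) had an unadjusted p under 0.05, where 19.5% of all genes did. Between day 14 and day 1, 0 passed against 14.4% of all genes, and 2 (Fosl2 and Egr1) had an unadjusted p under 0.05 against 28.6%. Between day 14 and day 7, 0 passed against 0.489%, and 0 had an unadjusted p under 0.05 against 13.7%. At the unadjusted threshold the count of the 10 lay above the background share in the first of these comparisons and below it in the other 2, and 1 gene more or less would move each share by 10 percentage points.

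Direction within the preparations gave a similar picture. At day 7 against day 1, Junb and Klf6 were lower in all 4 preparations, as were 14.1% of all genes. At day 14 against day 1, Egr1 alone was lower in all 4 (16.2% of all genes), and Fosl2 and Jun were higher in all 4 (18.1%). Myc joined Egr1 when each array was centred on its median. At day 14 against day 7, Fosl2, Jun and Klf6 were higher in all 4, as were 13.2% of all genes. The median change of the 10 genes was -0.11 at day 7 and -0.07 at day 14, both against day 1, where the median of all genes was -0.0004 and 0.007.

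The preparations differed in this. The median change of the 10 genes at day 7 was -0.19 in male 1, -0.20 in male 2 and -0.16 in female 1, with 8, 9 and 8 of the genes lower than at day 1. In female 2 the median was 0.08, and 4 of the 10 were lower. At day 14 the medians were -0.08, -0.14, 0.05 and 0.07 in male 1, male 2, female 1 and female 2.

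Between the sexes most of the 10 genes lay higher in males. Averaged over the 3 days of each preparation, 9 of the 10 genes lay higher in both male pools than in both female pools, where 29.6% of all genes did. Myc was the exception, at -0.08 ± 0.064 (male minus female). The median difference of the 10 was 0.22 against 0.02 for all genes, of which 54.8% lay above 0. With 2 pools per sex none of the 10 passed (0.177% of all genes did), and 6 had an unadjusted p under 0.05 in limma (Fos, Fosl2, Junb, Jund, Ier3 and Klf6), where 19.8% of all genes did. These genes share arrays, so their common direction counts as 4 pools, not as 10 genes.

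Fos had the largest sex difference of the 10. The 6 male arrays ran from 6.68 to 7.15 with a median of 6.95, and the 6 female arrays from 6.19 to 6.59 with a median of 6.34. No male array fell within the female range. The difference of the means was 0.55 ± 0.11 (interval 0.25 to 0.84; 1.46-fold; limma adjusted p 0.117), and at the 3 days it was 0.68, 0.41 and 0.56. Jund was the other gene with all 6 male arrays above all 6 female ones, which held for 1.8% of all genes. Its male arrays ran from 9.79 to 9.88 and its female arrays from 9.56 to 9.76, a difference of 0.19 ± 0.058 (adjusted p 0.195).

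Klf6 ran from 10.51 to 10.91 with a median of 10.66 in male arrays and from 10.26 to 10.57 with a median of 10.38 in female arrays. The ranges overlap across days, although at each day both males lay above both females. The difference was 0.29 ± 0.058 (interval 0.14 to 0.44; adjusted p 0.115). Ier3 differed by 0.35 ± 0.12 (adjusted p 0.227), Fosl2 by 0.26 ± 0.078 (adjusted p 0.192) and Junb by 0.25 ± 0.064 (adjusted p 0.162) in the same fit. The trended and robust spread put Fos (adjusted p 0.014), Junb (0.034), Jund (0.0404) and Klf6 (0.00279) past the limma threshold, and no other alternative fit did. That setting called 974 of all genes between the sexes, against 21 in the reported fit.

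Day by day, more of the genes separated the sexes at day 1 than later. Both male arrays lay above both female arrays for 9 of the 10 genes at day 1, all but Myc, where 25.6% of all genes did. Fosl2 no longer separated them at day 1 after median centring or a second quantile normalization. They did so for 7 at day 7 (24.9% of all genes) and for 6 at day 14 (22.6%). Egr1 and Ier2 separated at day 1 only, with differences of 0.31 and 0.475 at day 1, -0.09 and 0.02 at day 7, and 0.06 and -0.02 at day 14. Klf6 and Ier3 also had their widest gap at day 1, at 0.42 and 0.47. Whether the separation itself changed with the day was tested as the sex difference in the change.

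**Figure D3:**
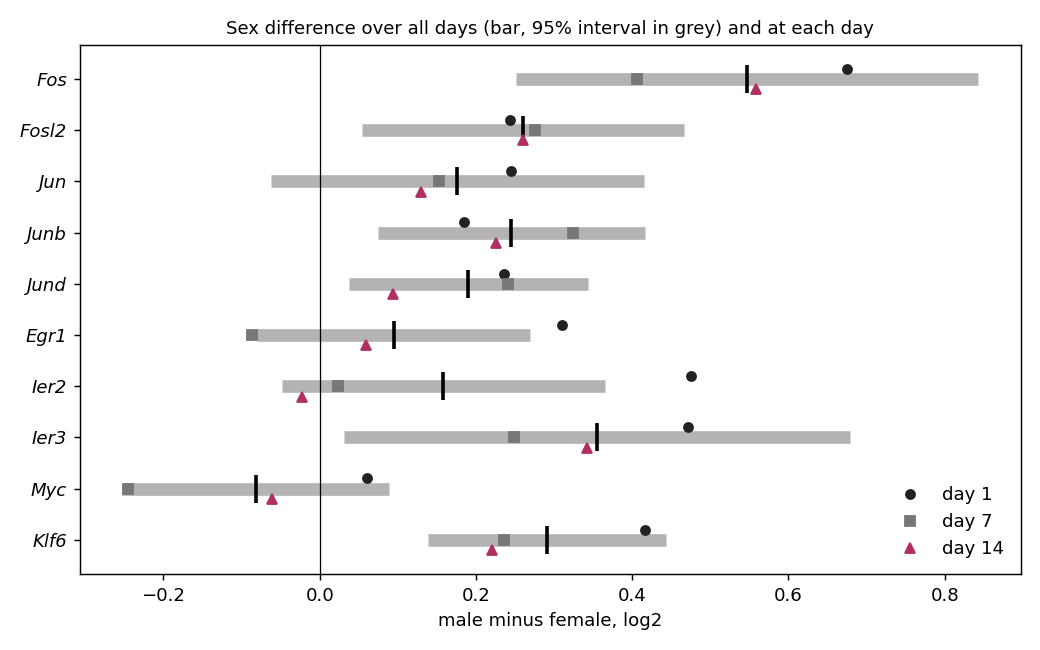
Male minus female difference in log2 level (x axis) for each gene (y axis). Bars are the difference over all days between 2 male and 2 female pools, grey bands its 95% interval, and points the difference at each day. Fos lies furthest to the right at 0.55, Myc is the only gene below 0 over all days, and Egr1 and Ier2 lie far to the right at day 1 only.

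No sex difference in a change passed, for the 10 genes or for any other gene (0% of all genes at day 7 and 0% at day 14, both against day 1). At day 7, 1 of the 10 (Myc) had an unadjusted p under 0.05, as did 4.76% of all genes. Myc changed by -0.33 in males and by -0.02 in females on average, a difference of -0.31 ± 0.12 (interval -0.58 to -0.03; limma adjusted p 0.99). At day 14, 0 of the 10 did, against 6.87% of all genes. Egr1 had -0.44 in males and -0.05 in females at day 7 (difference -0.40 ± 0.18, interval -0.81 to 0.01), and Ier2 had -0.35 and 0.11 (difference -0.45 ± 0.29). The intervals are wide, and the test does not show that the sexes changed alike.

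Mean marker levels of several cell types also differed between the sexes, though their ranges over all days overlap. The mean of the 13 stellate cell and fibroblast markers ran from 4.03 to 7.18 in male and from 6.34 to 7.18 in female arrays. The difference was -0.81. Of the 13, 8 had an unadjusted p under 0.05 in limma, where 19.8% of all genes did, and 0 passed. The same unadjusted threshold was met by 3 of 10 endothelial, 2 of 9 hepatocyte, 2 of 6 cholangiocyte and 1 of 16 macrophage markers. The 10 endothelial markers ran from 4.81 to 6.43 in male arrays and from 5.63 to 6.46 in female arrays, and the 9 hepatocyte markers from 10.82 to 11.16 in male arrays and from 11.11 to 11.46 in female arrays. In that list Cyp2e1 stood at -2.08 (male minus female; adjusted p 0.217) and the median of the 9 was -0.027. At day 1, where 9 of the 10 genes separated the sexes, the stellate means were 7.01 to 7.18 in male arrays and 7.07 to 7.18 in female arrays. The hepatocyte means at day 1 were 11.02 to 11.16 in male arrays and 11.19 to 11.32 in female arrays, and the cholangiocyte means were 5.68 to 5.76 in male arrays and 5.33 to 5.46 in female arrays. Their part in the sex difference was not tested.

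The genes outside the list whose course over the 12 arrays was most like that of Fos were Tyro3, a receptor tyrosine kinase, Fam204a and Dusp4, a phosphatase of MAP kinases. Their root mean square differences from Fos, after centring each gene on its own mean, were 0.12, 0.15 and 0.16, against a median of 0.42 over 5956 candidate genes. For Klf6 the nearest were Kdm4c, a histone demethylase, Arl14ep and Stam2, at 0.079 to 0.085. The nearest of Ier3 were Ext1, Tank and Ambra1 (0.11 to 0.12), and those of Ier2 were Mob1b, Cdca4 and Rnf138 (0.14). Within the list Jun and Jund were nearest to each other at 0.10, and so were Junb and Klf6 at 0.10.

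Changes that passed were found among other genes of the early response. Of 48 further immediate early genes 43 were measured, and at day 7 against day 1, 1 rose and 5 fell, beside 4.72% of all genes called. At day 14 against day 1, 3 rose and 13 fell, beside 14.4% of all genes called, and between day 14 and day 7 none passed. A fit without 1 preparation has fewer arrays and called fewer of all genes between days. Calls lost in such a fit, here and below, are therefore not particular to these lists. The 6 calls at day 7 became 1 without male 1 or female 1, 3 without male 2 and 2 without female 2. The 16 calls at day 14 became 8 without male 1, 7 without male 2, 12 without female 1 and 9 without female 2. With the trended and robust spread 11 of the 43 passed at day 7 and 20 at day 14, where 956 and 2183 of all genes did. The medians of the 43 were -0.13 at day 7 and -0.09 at day 14, both against day 1. Ptgs2, the inducible cyclooxygenase, stood at 4.67 ± 0.65, 6.85 ± 0.38 and 7.68 ± 0.70 at days 1, 7 and 14 (SD over 4 preparations). At day 1 it was low, under the level of 4.79, though no background level was measured. It rose by 2.18 ± 0.18 at day 7 and by 3.01 ± 0.18 at day 14 (limma adjusted p 0.00219 and 7.51e-05), and passed whichever 1 preparation was left out. Id1 and Id3, whose proteins block helix-loop-helix factors, fell by 1.38 ± 0.15 and 1.39 ± 0.18 at day 7 and by 0.98 and 1.55 at day 14. Id3 kept its day 14 call whichever 1 preparation was left out. Its day 7 call held only without male 2 (adjusted p 0.0477, and 0.061 to 0.0768 otherwise). Id1 lost its day 7 call without male 1 (0.0669) or female 1 (0.055) and its day 14 call without female 1 (0.0525).

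**Figure D4:**
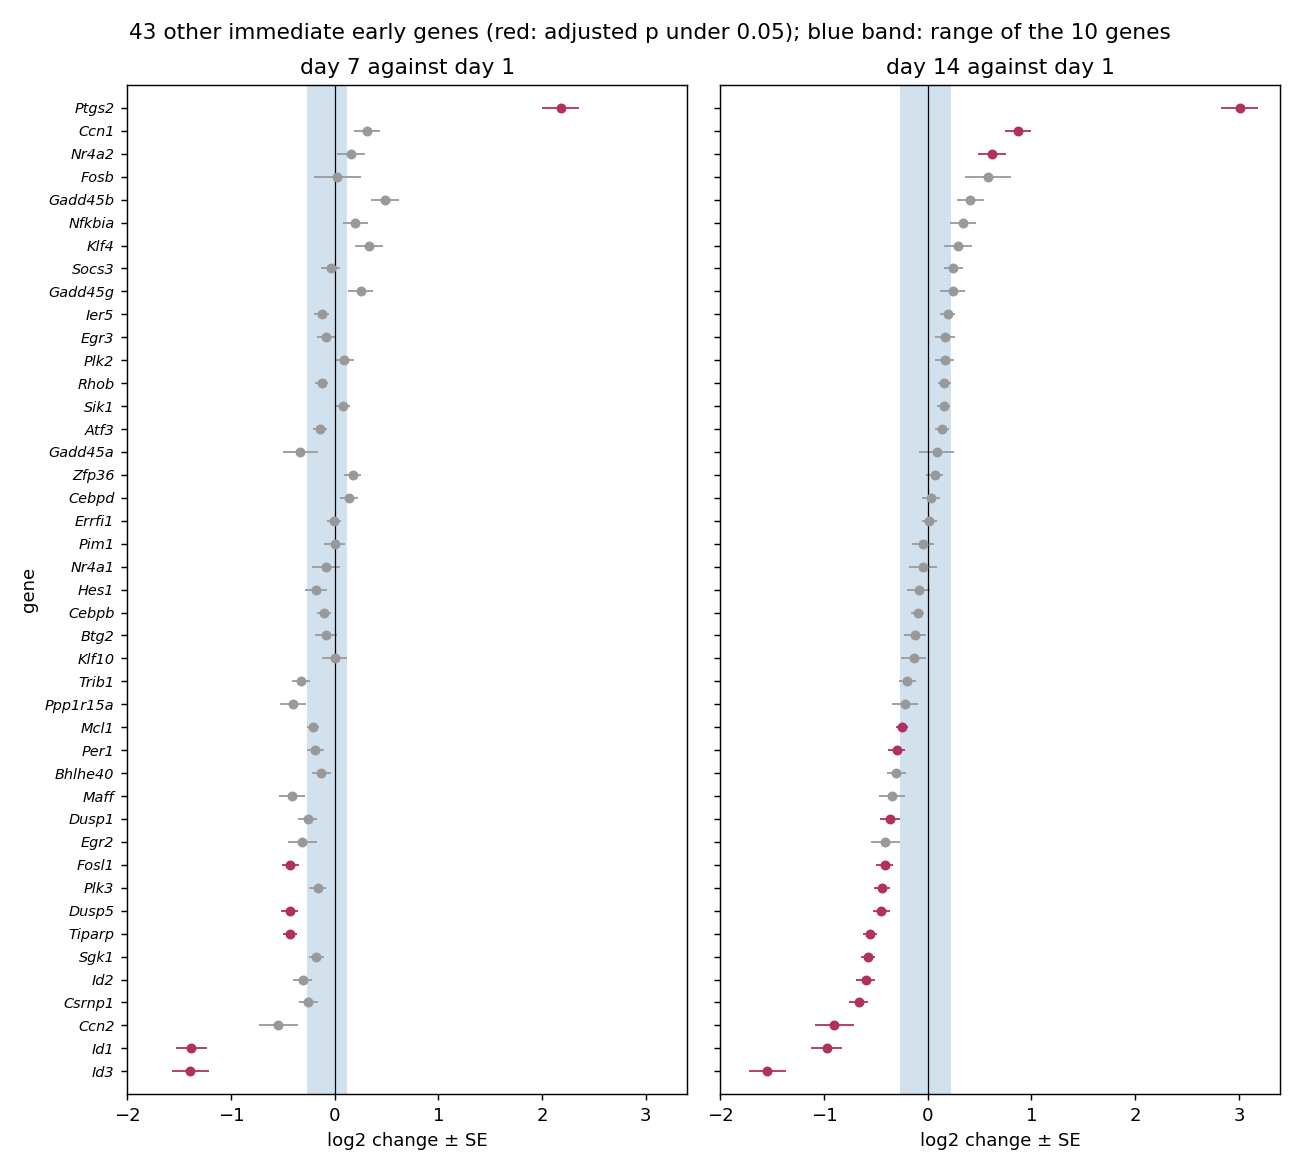
Log2 change with its standard error (x axis) of 43 other immediate early genes (y axis, ordered by the day 14 change) at days 7 and 14, both against day 1. Red points passed the adjusted threshold and the blue band spans the changes of the 10 genes. At day 7, 6 of the 43 passed and at day 14, 16 did, among them Ptgs2 at 2.18 and 3.01, whose day 1 level was low.

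Partners and relatives of the 10 held few calls, to be read beside 4.72% of all genes at day 7 and 14.4% at day 14. The trended and robust spread called more of all genes (956 at day 7 and 2183 at day 14). It also called more in most lists, among Kruppel-like factors 1 at day 7 and 3 at day 14. The lists overlap, so their counts are not separate. Fosl1 also stands among the other immediate early genes and the late targets, and Nab2 among the late targets. Dusp5, which fell at day 7, counts among both the other immediate early genes and the feedback genes below. Further genes are shared as well, such as Dusp1, Atf3 and Klf4. Of 11 measured AP-1 dimer partners 1 fell at both later days, namely Fosl1, which encodes FRA-1, by 0.43 ± 0.079 at day 7 and by 0.42 ± 0.079 at day 14 (adjusted p 0.0227 and 0.0104). It lost both calls whichever 1 preparation was left out. Over all fits the Fosl1 change ran from -0.51 to -0.35 at day 7 and from -0.45 to -0.38 at day 14. With the replicate block 2 of the 11 passed at each of these days. Among 5 measured EGR relatives and NAB corepressors, Nab2, which represses EGR1, was 1 that fell at day 14, by 0.37 ± 0.071 (adjusted p 0.0112; 0.0552 to 0.161 with 1 preparation left out), and none passed at day 7. Of 11 measured Kruppel-like factors only Klf9 passed, falling by 0.21 ± 0.053 at day 14 (adjusted p 0.0347; 0.0656 with the replicate block and 0.163 to 0.211 with 1 preparation left out).

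In the MYC network (10 of 12 measured) 1 gene fell at day 7 and 2 fell at day 14, beside the same 4.72% and 14.4% of all genes. Mlxipl, the carbohydrate response factor, fell by 0.80 ± 0.089 at day 14 and passed whichever 1 preparation was left out. Mxd1, a MAX partner that opposes MYC, fell by 0.465 ± 0.091 at day 7 and by 0.57 ± 0.091 at day 14 (adjusted p 0.028 and 0.00485). Its day 7 call was lost with the replicate block (0.0549) and whichever 1 preparation was left out (0.0797 to 0.232), and its day 14 call without male 1 (0.0662) or male 2 (0.0989). Of 22 measured textbook targets of MYC, most of them ribosome biogenesis genes, none passed at either day. At day 14, 3 passed with the trended and robust spread and 2 with a minimum mean level of 6. The median change of the 22 was -0.05 at day 7 and -0.04 at day 14. Cad, of pyrimidine synthesis, stood at -0.29 ± 0.13 at day 7 and Cdk4, a cell cycle kinase, at 0.25 ± 0.078 at day 14.

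Upstream, 22 measured MAP kinases and serum response regulators held 1 that passed, Elk3, a serum response factor partner, which rose by 0.58 ± 0.092 at day 14. Elk3 lost the call without male 1 (adjusted p 0.0652) or male 2 (0.0968). Among 15 measured feedback genes of this cascade, 1 rose and 3 fell at day 7, and 2 rose and 4 fell at day 14, beside 4.72% and 14.4% of all genes. With any 1 preparation left out fewer of these feedback genes passed at both days, as was so for all genes. Spry1, an inhibitor of the cascade, rose by 0.71 ± 0.11 at day 7 against a day 1 mean of 4.43, a low level under 4.79. Dusp6, an ERK phosphatase, fell by 0.49 ± 0.078 at day 7. Whichever 1 preparation was left out, neither passed at day 7 (adjusted p 0.0531 to 0.149 for Spry1 and 0.0733 to 0.174 for Dusp6). None of 13 measured genes whose proteins bind or degrade AU-rich mRNAs passed at either day. At day 14, 1 passed with the replicate block, 3 with the trended and robust spread and 2 with a minimum mean level of 6. Tial1 stood at 0.19 ± 0.08 at day 7 and Tia1 at 0.29 ± 0.093 at day 14.

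Downstream, 16 of 25 late targets of AP-1 and EGR1 were measured. Of these, 1 rose and 3 fell at day 7 and 3 rose and 3 fell at day 14, beside 4.72% and 14.4% of all genes. With the trended and robust spread 9 passed at each of these days. The 4 calls at day 7 became 2 with the replicate block and 0 whichever 1 preparation was left out. The 6 at day 14 became 1 without male 1 or male 2 and 3 without female 1 or female 2. Cd44, a surface receptor, rose by 0.68 ± 0.074 at day 14 (adjusted p 0.000937), and passed whichever 1 preparation was left out. Ereg, a growth factor, fell by 0.65 ± 0.10 at day 14 and lost its call without male 1 (adjusted p 0.0681) or male 2 (0.0527). Plaur, the urokinase receptor, rose by 0.53 ± 0.082 at day 14 and lost its call without male 1 (0.0892) or male 2 (0.0615). In none of these 10 pathway lists did a gene pass between the sexes over all days.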

How the data were processed

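The authors deposited 1 log2 value per probe set and array, made with RMA (background correction, normalization between arrays and probe summary), Transcriptome Analysis Console 4.0 and Partek 7.0, per the submitters' processing notes, which give no role or order. The build, annotation release and filters remain not given in the sources used here. Scanner files were not used here. The table held 13081 probe sets, of which 11889 had 1 symbol in the platform annotation, 1192 had none and 0 had several, which gave 11861 genes after keeping the probe set with the highest mean. RMA compresses differences near the bottom and top of its range. No columns were left unused (0).

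The limma fits (limma 3.58.1 in R 4.3.3) were checked on simulated data. Day comparisons and the sex difference in a change came from 1 model with 6 group means over 12 arrays (lmFit, contrasts.fit, eBayes without trend, not robust). Sex over all days was tested on 2 male and 2 female means, each over the 3 days of 1 preparation. Tests were two-sided, with Benjamini-Hochberg adjustment over 11861 genes and a threshold of 0.05. A ± on a change is the model's standard error. Precision is limited by the few arrays, with a median standard error over all genes of 0.0946 for day changes, 0.076 for sex and 0.189 for how the change differed by sex.

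The 10 genes and the gene lists were chosen with earlier results of these data known. Beside the 10, the text names from each pathway list and day comparison some of the 3 largest changes among genes that passed, or 1 gene with the largest change if no gene passed, and for the 4 of the 10 with the largest SD the 3 nearest genes, leaving out genes with less than 0.5 times their SD and predicted or clone-named genes. The same pools were sampled at every day, so donor numbers pair the samples by design. Deviations from the group means correlated between days at r = 0.104, 0.0359 and 0.224 in males and at 0.0777, 0.0657 and 0.324 in females (days 1 and 7, 1 and 14, 7 and 14). Alternatives were a replicate block, a trended and robust spread, median centring, a second quantile normalization, a minimum mean level of 6, the mean over probe sets, and each preparation left out in turn. The same alternatives were added for the list genes after the data were seen. Promoter windows came from RefSeq (GRCm38.p6), matched by symbol, and were used for their letters only, not to place probe sets.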

Additional observations from a re-analysis of the deposited data

Results flagged for a closer look

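In 60 sets of 4 preparations (the level of each of the 10 genes at each day and its change between each pair of days), 4 had 1 preparation far from the other 3, by Dixon's test of the gap to the nearest of the others against the whole range, at the 95% level. Chance gives about 1 in 20. The lone preparation was female 2 in each of the 4.

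The Fos change at day 7 against day 1 was 0.394 in female 2 and between -0.31 and -0.21 in the others. The Klf6 change at day 14 against day 1 was 0.12 in female 2 and between -0.23 and -0.19 in the others. The Ier3 level at day 14 was 9.71 in female 2 and between 10.30 and 10.35 in the others. The Myc level at day 1 was 10.67 in female 2 and between 10.79 and 10.81 in the others.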

How the results depend on the processing

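Over 10 alternatives, 367 of 390 values of the 10 genes kept their direction and their side of the threshold, 9 passed only under the alternative and 14 turned sign, each with 1 preparation left out and from a change of at most 0.12 in size. With a trended and robust spread 3 of the 10 passed at day 7 and 1 at day 14, both against day 1, and 4 between the sexes. With a minimum mean level of 6, 1 passed at day 7 (Klf6). Counts over all genes under the trended and robust spread were 956 at day 7 (560 in the reported fit), 309 for day 14 against day 7 (58), 14 for the sex difference in the day 14 change (0) and 974 for sex (21). With the minimum level they were 103 for day 14 against day 7 and 282 for sex. The replicate block, which pairs the arrays of a preparation, gave 101 for day 14 against day 7 and 1 for the sex difference in the day 14 change, and changed no call of the 10 genes. In its fit the list genes Mxd1 (adjusted p 0.0549), Lif (0.0575) and Plaur (0.0613) at day 7 and Klf9 (0.0656) at day 14 missed the limma threshold, while Tia1 passed at day 14.

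With each preparation left out, counts over all genes ran from 40 (without male 1) to 75 (without male 2) at day 7 and from 494 (without male 1) to 826 (without female 1) at day 14, both against day 1. They ran from 0 to 8 for day 14 against day 7, from 0 to 17 (without male 2) for the sex difference in the day 14 change, and from 3 to 26 for sex. Changes whose sign turned ran, at day 7 against day 1, from -0.27 to 0.084 for Fos, from -0.057 to 0.031 for Jun, from -0.0205 to 0.048 for Jund and from -0.32 to 0.075 for Ier2. At day 14 against day 1 they ran from -0.21 to 0.019 for Fos and from -0.13 to 0.042 for Ier3. At day 14 against day 7 they ran from -0.065 to 0.061 for Fos, from -0.15 to 0.10 for Egr1, from -0.28 to 0.20 for Ier2 and from -0.11 to 0.15 for Ier3. The cause was not tested, though a fit without 1 preparation has fewer arrays and assumes that the lone arrays of that sex vary like the other groups. With 2 pools per sex and a day 1 baseline only, small changes and the hours before day 1 are beyond these data.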
